A study of Mus musculus with 32 samples.

Results

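Glutamatergic transmission genes were followed in frontal cortex RNA of wild-type (WT) and GFAP-IL6 mice across 4 amounts of RNA input. The 10 genes were chosen by symbol from the 33000 genes in the count table, and each symbol matched a single row. They were the AMPA receptor genes Gria1, Gria2, Gria3 and Gria4, the NMDA receptor genes Grin1, Grin2a and Grin2b, the metabotropic receptor gene Grm5, the vesicular glutamate transporter gene Slc17a7 (VGLUT1) and the kinase gene Camk2a. The animals were 3-month-old WT C57BL/6 mice and mice homozygous for GFAP-IL6, a transgene that expresses interleukin 6 from the Gfap promoter, which drives it in astrocytes. Libraries were made by 3'Pool-seq, in which an oligo-dT primer tags the 3' ends of transcripts, with 50, 10, 1 or 0.5 ng of total RNA entering reverse transcription. There were 4 libraries for either genotype at every input, which made 8 groups and 32 libraries. Nothing in the labels says that libraries of a group came from separate animals, so the p-values measure only the spread between these libraries, which may be technical.

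Glutamate is the main excitatory transmitter of the cortex. It is loaded into synaptic vesicles by transporters such as the product of Slc17a7, and acts on AMPA receptors, which carry most fast synaptic current, on NMDA receptors, which admit calcium, and on G protein-coupled metabotropic receptors. Calcium that enters through NMDA receptors activates the kinase encoded by Camk2a, which is abundant in the postsynaptic density of excitatory neurons. In bulk tissue, fewer cells of a type and less RNA per cell cannot be told apart.

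Total counts per library ran from 1071895 to 7538356 at 50 ng, from 1064514 to 9840302 at 10 ng, from 261378 to 2800270 at 1 ng and from 295022 to 2722389 at 0.5 ng, and values are given as CPM, counts scaled so that every library has the same total. Il6 itself had 4 to 22 counts in the GFAP-IL6 libraries and 0 or 1 in the WT libraries at 50 ng, and 2 to 41 against 0 to 3 at 10 ng. At 1 ng the library labelled WT replicate 3 had 13 Il6 counts, where the other WT libraries had 0, and the libraries labelled GFAP-IL6 replicates 2 and 3 had 0, where replicates 1 and 4 had 27 and 10, although the microglial protease gene Ctss sided with the labels there, at 143 to 207 CPM in WT against 455 to 732 CPM in GFAP-IL6. At 0.5 ng Il6 had 0 counts in all 8 libraries. The library GFAP-IL6 replicate 4 stood apart at 50 ng and, less so, at 10 ng, and results that rest on it are given with and without it. WT replicate 3 carried 3003 to 3355 CPM of Ttr, a choroid plexus gene, at every input, against 25.5 to 335 CPM in the other 28 libraries. Cortical excitatory neuron markers summed to 1228 to 1458 CPM at 50 ng with none of the 10 at 0, while of 9 striatal markers, which summed to 258 to 505 CPM, Drd2 was at 0 in every library at 50 ng.

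The genes differed widely in level. In WT at 50 ng, Gria2, the subunit gene whose edited product makes AMPA receptors impermeable to calcium, was highest at 796 ± 48.7 CPM (SD, n = 4). Grin2b followed at 451 ± 54.8 CPM, then Gria3 at 228 ± 17.7, Grin2a at 207 ± 19.2 and Camk2a at 196 ± 8.25 CPM. Gria1 was at 112 ± 5.49 CPM, Grin1, the obligatory NMDA receptor subunit gene, at 70.6 ± 9.30, Slc17a7 at 38.0 ± 6.08, Gria4 at 36.6 ± 3.89 and Grm5 at 2.53 ± 1.32 CPM. In this order the ranges of Gria3 and Grin2a, of Grin2a and Camk2a and of Slc17a7 and Gria4 overlapped, whereas all other neighbours were separated in every library.

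The order depended on whether levels were divided by gene length. Because 3'Pool-seq reads come from transcript ends, the counts do not grow with length as they do in full-length sequencing. The study therefore left out length normalization, and the scale per kilobase is given only beside CPM. This scale also depends on the annotation, since Gria3 has 5437 bases in the count table and 9859 in merged exons of a later GENCODE release. Per kilobase of the length in the count table, WT libraries at 50 ng had 75.9 ± 4.64 CPM of Gria2, 41.9 ± 3.25 of Gria3 and 34.6 ± 1.46 of Camk2a. Gria1 at 19.4 ± 0.948, Grin2b at 18.2 ± 2.21, Grin1 at 16.2 ± 2.13, Grin2a at 13.8 ± 1.29 and Slc17a7 at 12.9 ± 2.07 CPM per kilobase formed a run in which each neighbour overlapped the next. Gria4 had 5.96 ± 0.633 and Grm5 0.700 ± 0.366 CPM per kilobase. Grin2b thus moved from the second place to the fifth and Camk2a from the fifth to the third, while Gria2 stayed first and Gria4 and Grm5 stayed last.

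**Figure D1:**
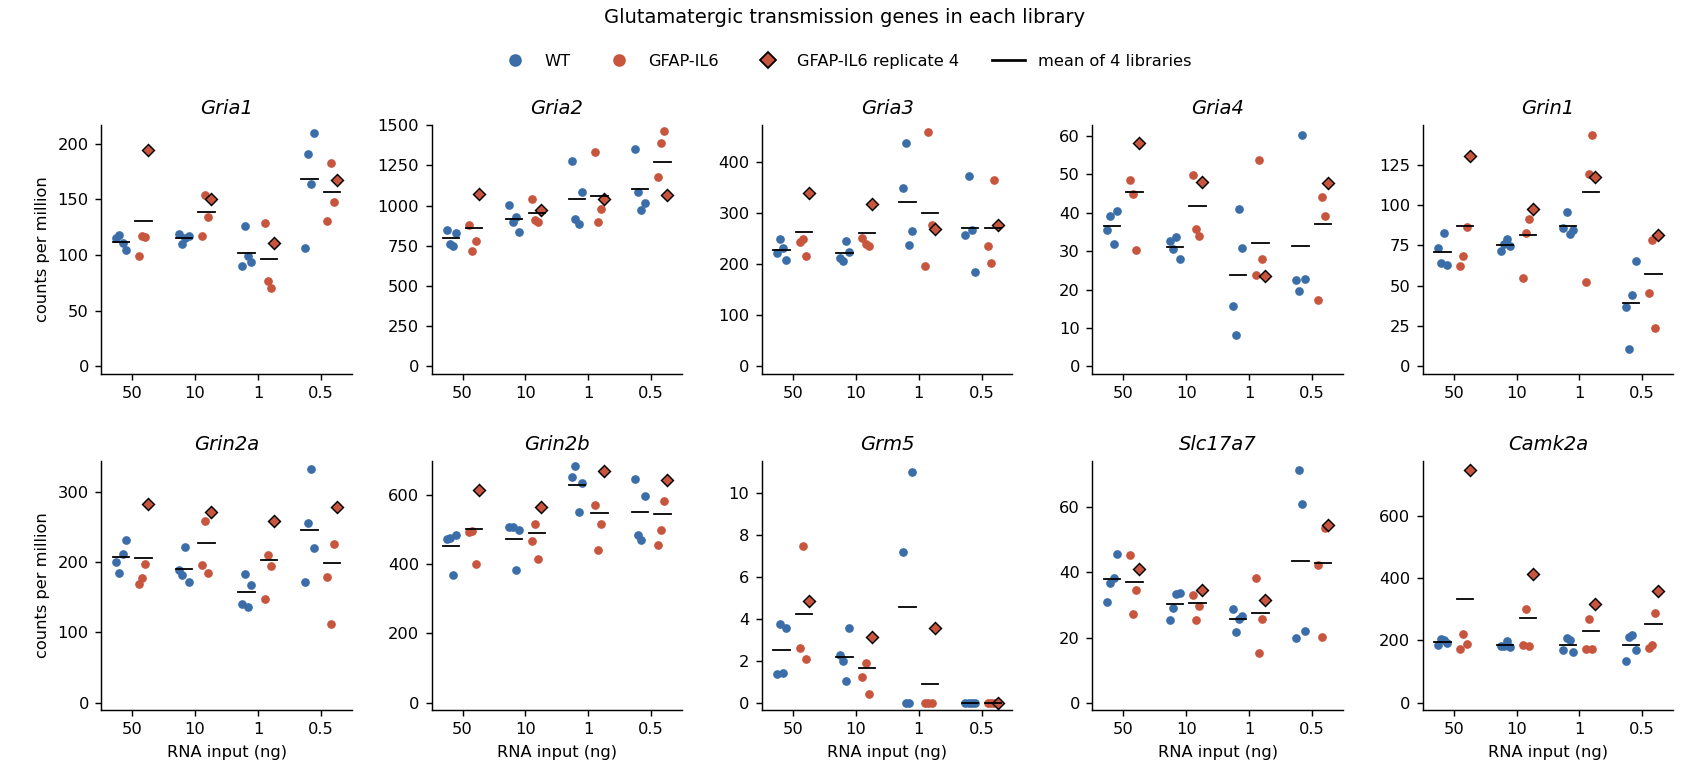
CPM (y axis, from 0, a scale of its own for each gene) of the 10 genes in each of the 32 libraries by RNA input in ng (x axis), with WT in blue, GFAP-IL6 in red, GFAP-IL6 replicate 4 as a diamond and the mean of 4 libraries as a line. GFAP-IL6 replicate 4 is the highest of 8 libraries for 8 genes at 50 ng, Camk2a most of all at 748 CPM, and Grm5 is at 0 in all 8 libraries at 0.5 ng.

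By position in GRCm38, the members lie on 9 chromosomes. Grin1 (ENSMUSG00000026959.11) is at chr2:25291181-25319187 on the minus strand and Gria2 (ENSMUSG00000033981.12) at chr3:80681450-80802835, also on the minus strand. Grm5 (ENSMUSG00000049583.12) and Slc17a7 (ENSMUSG00000070570.4) are both on the plus strand of chromosome 7, at 87584168 to 88134907 and 45163949 to 45176142. Grin1 shares 1307 exonic bases with the antisense gene Grin1os, which itself had 8 counts over all 32 libraries. The exons of Grin2b overlap those of an antisense gene, Gm26653, by 49 bases, and this gene had 260 counts in all. The sources do not state whether strand was used in counting, so reads in these overlaps are uncertain. All 10 members are protein coding.

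Whether the IL6 transgene altered glutamatergic genes was asked by comparing GFAP-IL6 with WT within each input. No member passed an adjusted p of 0.05 (edgeR quasi-likelihood test, Benjamini-Hochberg adjustment over all genes tested) at any input. At 50 ng 0 of 10 members tested passed, beside 0.280% of all genes tested. At 10 ng it was 0 of 9, beside 0.332% of all genes, at 1 ng 0 of 9 beside 0.0323%, and at 0.5 ng 0 of 9 beside 0.0117%. Grm5 was too low to be tested below 50 ng. Only Camk2a had an unadjusted p under 0.05 in edgeR, at 50 and at 10 ng, and neither the DESeq2 test nor limma voom with library weights passed any member at any input.

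The intervals show how large a difference the libraries could have missed. At 50 ng the 95% interval of the fold change lay within 2-fold in either direction for 8 of 10 members, the exceptions being Camk2a and Grm5, and at 10 ng for 9 of 9. It did so for 7 of 9 at 1 ng and for 5 of 9 at 0.5 ng. Gria2 had the narrowest of these intervals, from 0.835 to 1.34-fold at 50 ng and from 0.860 to 1.21-fold at 10 ng. Grin1 at 0.5 ng could have been anywhere from 0.526 to 3.75-fold.

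**Figure D2:**
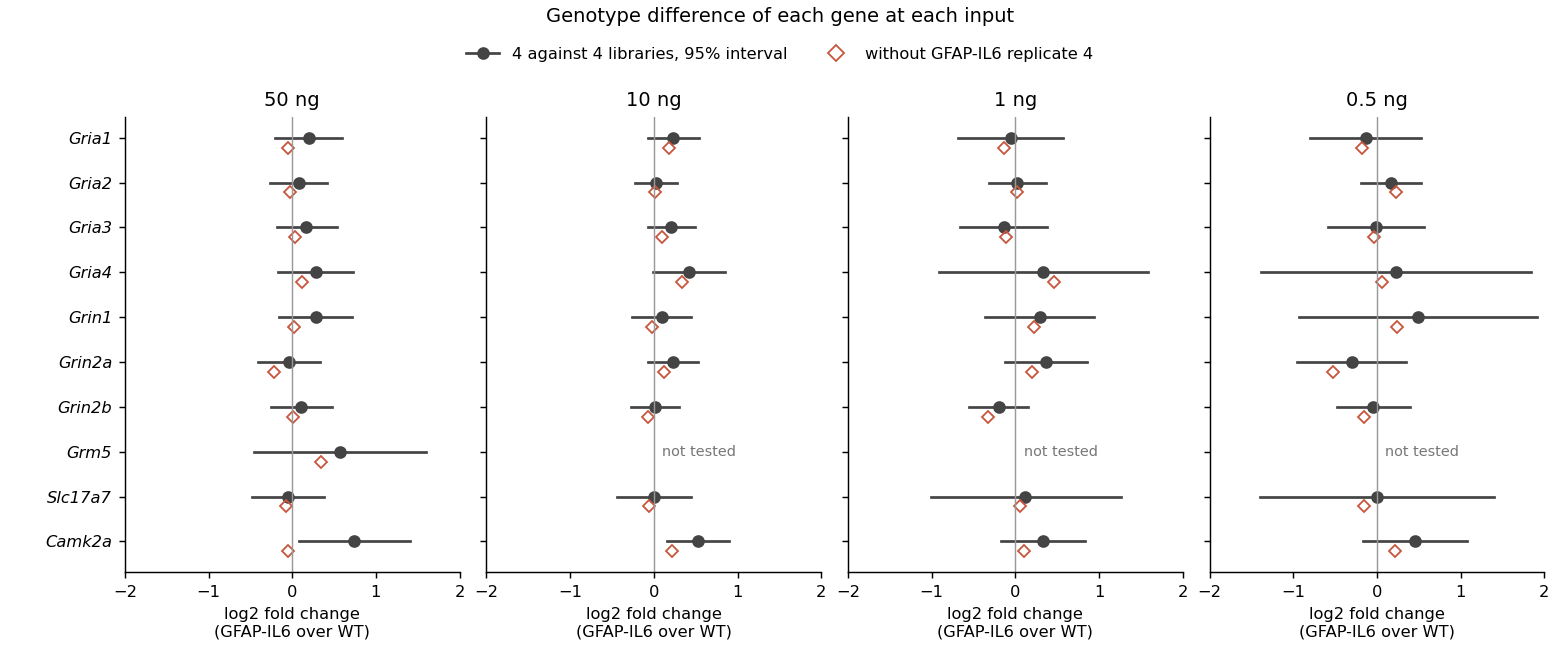
Log2 fold change of GFAP-IL6 over WT (x axis) for each gene (y axis) at the 4 inputs, as the estimate with its 95% interval from 4 against 4 libraries (edgeR, circles) and the estimate without GFAP-IL6 replicate 4 (diamonds). At 50 ng Camk2a lies at 0.74 with all libraries and at -0.045 without replicate 4, and no gene passed the adjusted threshold in the 4 against 4 fits.

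Camk2a showed the largest genotype difference of the members at 50 and 10 ng. At 50 ng the 4 WT libraries had 187, 205, 200 and 192 CPM, and the GFAP-IL6 libraries had 172, 222, 189 and 748 CPM. Replicate 4 alone was high, and the other 3 GFAP-IL6 libraries were spread around the WT values. The log2 fold change was 0.74 with an SE of 0.321 (edgeR, adjusted p = 0.835), and without GFAP-IL6 replicate 4 it was -0.045 with an SE of 0.110 (edgeR, adjusted p = 0.996). With no filter on low counts the 4 against 4 comparison passed the threshold at a log2 fold change of 0.75 (edgeR, adjusted p = 0.0109), and every other alternative gave an adjusted p of 0.366 or more.

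At 10 ng Camk2a had 181, 183, 197 and 178 CPM in WT and 185, 302, 181 and 414 CPM in GFAP-IL6. Here replicates 2 and 4 were above all WT libraries while replicates 1 and 3 were within the WT range. The log2 fold change was 0.53 with an SE of 0.183 (edgeR, adjusted p = 0.434). It was 0.22 without replicate 4 (adjusted p = 0.977) and -0.058 with replicates 2 and 4 both left out (adjusted p = 0.992). Without GFAP-IL6 replicate 3, by contrast, it was 0.69 and passed (edgeR, adjusted p = 0.0363), while the other alternatives gave adjusted p-values of 0.0874 or more.

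At 1 ng Camk2a had 162 to 207 CPM in WT and 172, 268, 172 and 316 CPM in GFAP-IL6, and at 0.5 ng 135 to 219 CPM in WT and 177, 186, 288 and 359 CPM in GFAP-IL6. Replicate 4 was again the highest of 8 at both inputs. Log2 fold changes were 0.33 with an SE of 0.241 and 0.45 with an SE of 0.299, and they were 0.10 and 0.21 without replicate 4.

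The same library raised most of the other members. At 50 ng GFAP-IL6 replicate 4 was the highest of 8 libraries for 8 of the 9 members above 10 CPM, all but Slc17a7, and 33.0% of the 8749 genes at that level were highest in it. Gria1 was at 194 CPM in it against 98.8 to 118 in the other 7 libraries, Grin1 at 130 against 62.0 to 86.5, Gria3 at 340 against 208 to 250 and Grin2a at 282 against 169 to 231 CPM. At 10 ng it was highest for 6 of 9 members and for 17.3% of genes, at 1 ng for 2 of 9 and 8.64%, and at 0.5 ng for 2 of 9 and 8.92%.

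Gene length moved with this. When the genes above 10 CPM at 50 ng were split by length into 4 bins of equal size, the median log2 difference of replicate 4 from the median of the other 7 libraries went from -0.66 in the bin of the shortest genes through -0.29 and 0.25 to 0.58 in the bin of the longest. The gap between the bins of the longest and the shortest genes was 1.24 in this library, whereas it was between -0.19 and 0.035 in the other 7. It was 0.68 at 10 ng against -0.23 to 0.33 in the others, 0.42 at 1 ng against -0.21 to 0.070 and 0.34 at 0.5 ng against -0.18 to 0.080. The 0.33 at 10 ng belonged to GFAP-IL6 replicate 2, the other library with high Camk2a there.

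Of the 10 members 7 fell in the bin of the longest genes, above 5053 bases at 50 ng. For Gria2, Gria3, Gria4, Grin2a and Grin2b the rise in replicate 4 at 50 ng was between 0.37 and 0.56 (log2), below the median of 0.58 for that bin. Gria1, at 0.75, was 0.17 above it. Grin1, in the third bin, rose by 0.92 and lay 0.67 above the median of its bin, and Slc17a7, in the second, rose by 0.16 where that bin had -0.29. Camk2a rose by 1.95, which was 1.37 above its bin and higher than 99.9% of the genes in it. The bins used lengths in the count table, where Grin1 has 4368 and Slc17a7 2939 bases. A later GENCODE release gives their merged exons as 9700 and 5392 bases, and bins by that release were not made. What part length had in the level of any member was not tested.

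**Figure D3:**
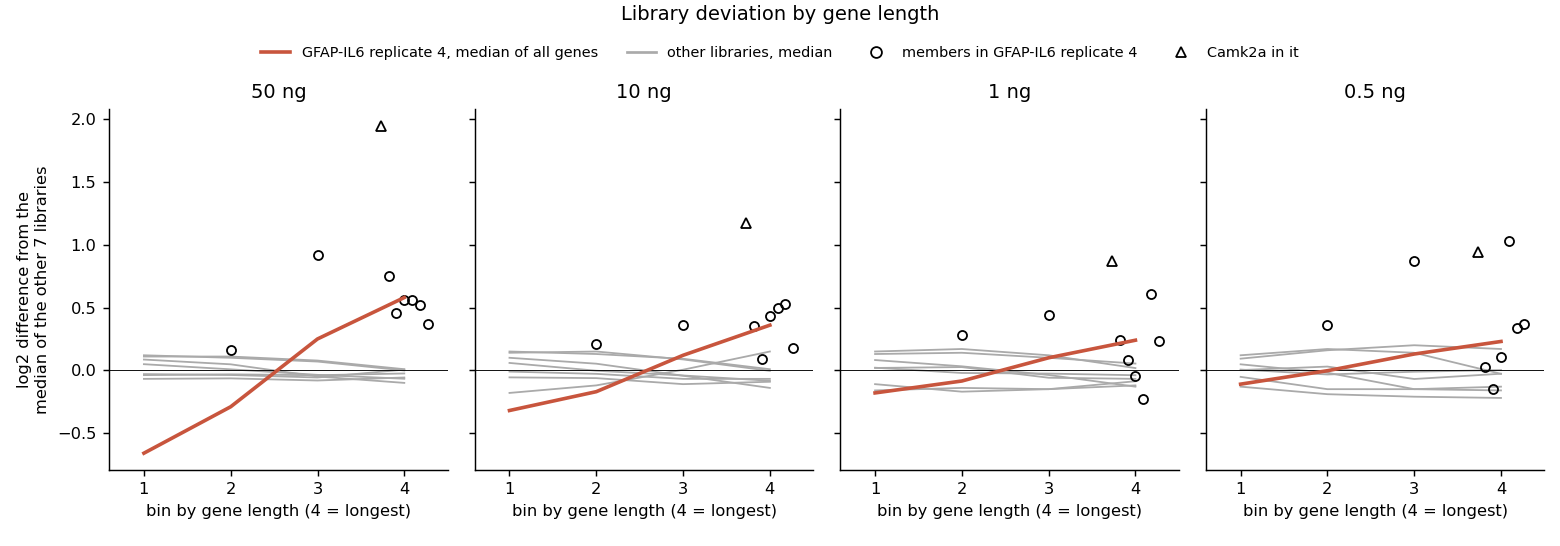
Log2 difference of each library from the median of the other 7 libraries of its input (y axis), as medians over genes above 10 CPM in 4 equal bins by gene length (x axis, 4 the longest), for GFAP-IL6 replicate 4 (red) and the other libraries (grey), with the members in GFAP-IL6 replicate 4 as circles and Camk2a as a triangle. The red line runs from -0.66 to 0.58 at 50 ng and from -0.11 to 0.23 at 0.5 ng, and Camk2a lies above it at every input.

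Without GFAP-IL6 replicate 4 the members' genotype differences centred on 0 at 50 ng. The median log2 fold change over the 10 members went from 0.19 with 8 above 0 to -0.008 with 5 above 0, while the median of all genes tested was -0.003 in the fit of all 8 libraries. At 10 ng it went from 0.21 with 9 of 9 above 0 to 0.093 with 6 of 9 above 0. The medians at 1 and 0.5 ng were 0.12 and 0.002 with the library, and 0.053 and -0.040 without it. Leaving it out brought Grin2a at 50 ng to -0.22 with an SE of 0.105, which did not pass the threshold (edgeR, adjusted p = 0.827).

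Only Gria4 had groups that did not overlap. At 10 ng its GFAP-IL6 libraries had 49.7, 35.7, 33.9 and 48.0 CPM and its WT libraries 32.5, 30.4, 33.6 and 27.9 CPM, so the groups were separate by a narrow margin. The log2 fold change was 0.42 with an SE of 0.211 (edgeR, adjusted p = 0.671). This was 1 of 9 members above 10 CPM at 10 ng, where 3.97% of genes had groups that did not overlap. At 50, 1 and 0.5 ng it was 0 of 9, beside 2.82%, 3.11% and 2.80% of genes.

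Genes of the GFAP-IL6 response were detected in the same libraries. At 50 ng Ctss had 178 ± 17.9 CPM in the WT libraries and 519 ± 191 CPM in the GFAP-IL6 libraries (SD, n = 4). It rose by 1.50 on the log2 scale with an SE of 0.225 (edgeR, adjusted p = 0.00126), and also passed at the other 3 inputs. Gfap, the astrocyte filament gene, rose by 2.20 at 50 ng (adjusted p = 0.000113) and by 2.49 at 10 ng. Aif1, a microglial calcium-binding protein gene, passed at 10 ng alone, with a log2 fold change of 0.87 (adjusted p = 0.0238). At 50 ng 1 of 6 astrocyte markers and 1 of 7 microglia markers passed, with no gene of either list at 0. Astrocyte markers summed to 480 to 572 CPM in WT against 577 to 801 in GFAP-IL6, and microglia markers to 361 to 389 against 477 to 1028. The 801 and the 477 came from GFAP-IL6 replicate 4. Median log2 fold changes of the lists were 0.32 and 0.60, but not every marker rose. The astrocyte marker Aldh1l1 averaged 32.8 CPM in WT and 26.4 in GFAP-IL6, and the microglia marker P2ry12 67.1 and 59.5 CPM. No pan-neuronal, cortical excitatory neuron, striatal, interneuron, oligodendrocyte, endothelial or choroid plexus marker tested passed at any input. Only 1 of 4 choroid plexus markers was tested. Sums at 50 ng were separate for interneuron markers, at 1332 to 1421 CPM in WT against 995 to 1282 in GFAP-IL6. So were those of cortical excitatory neuron markers (1368 to 1458 against 1228 to 1353) and endothelial markers (91.0 to 112 against 151 to 177). GFAP-IL6 replicate 4 held the 995 and the 1228. Astrocyte and microglia sums, given above, were separate too, while pan-neuronal, striatal, oligodendrocyte and choroid plexus sums overlapped at 50 ng. Interneuron and excitatory sums overlapped at 10 and 0.5 ng. At 1 ng interneuron sums were separate, at 1163 to 1454 CPM in WT against 958 to 1085 in GFAP-IL6, and excitatory sums overlapped. Endothelial sums were separate at 10 ng (85.4 to 101 against 147 to 172) and 1 ng (43.4 to 111 against 122 to 199). They overlapped at 0.5 ng.

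Neuronal markers did not rise with the members in GFAP-IL6 replicate 4. At 50 ng its 10 pan-neuronal markers summed to 8098 CPM and its 10 cortical excitatory neuron markers to 1228 CPM, the lowest of the 8 libraries in both cases. Its 10 members summed to 3483 CPM against 2024 to 2202 CPM in WT.

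The wider pathway was examined in the same fits. Of 64 further glutamatergic genes, which cover other glutamate receptors, auxiliary and scaffold proteins of the receptors, calmodulin kinases and calcium signalling, and glutamate transport and metabolism, 60 were tested at 50 and 10 ng, 54 at 1 ng and 55 at 0.5 ng. None passed in either direction between genotypes in edgeR, and 3, 7, 1 and 2 had an unadjusted p under 0.05. The 3 of 60 at 50 ng stood beside 5.63% of all genes tested, and the 11.7%, 1.85% and 3.64% at the smaller inputs beside 7.48%, 3.59% and 2.87%. Their median log2 fold changes were 0.11, 0.074, 0.067 and 0.066 from the largest input to the smallest, and -0.055, 0.015, 0.005 and -0.019 without GFAP-IL6 replicate 4, where 7 unadjusted calls at 10 ng became 2.

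The genes most like the members across the 16 libraries at 50 and 10 ng, by Pearson's r with the mean of the members' standardized log2(CPM + 1), were Slc1a2 at 0.962, Apc at 0.944, Kif5a at 0.938, Usp34 at 0.936 and Cmip at 0.931, among 8726 genes of at least 10 CPM. Slc1a2 encodes the main glutamate transporter of astrocytes and Kif5a a neuronal kinesin. Without the pair of GFAP-IL6 replicate 4 libraries, r over 14 libraries was 0.660 for Slc1a2, 0.832 for Apc, 0.689 for Kif5a, 0.813 for Usp34 and 0.197 for Cmip. The median r of the 36 pairs among the 9 members other than Grm5 fell likewise, from 0.459 over 16 libraries to 0.0401 over 14. These values are descriptions, and the libraries share genotypes, inputs and replicate numbers.

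Whether a smaller input shifted the level of a member was asked by comparing each input with 50 ng, averaged over both genotypes, in 16 libraries. At 10 ng 0 of 10 members passed, as did 0% of all genes tested (edgeR; 523 genes had an unadjusted p under 0.05, Gria2 the only member among them). At 1 ng 0 of 10 passed, beside 1.20% of all genes, and Gria2, Gria3 and Grin2b had an unadjusted p under 0.05. At 0.5 ng 1 of 9 members passed, beside 2.55% of all genes, and this was Gria2.

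Gria2 averaged higher at each smaller input and passed at 0.5 ng. Its WT libraries had 846, 760, 748 and 829 CPM at 50 ng and 1353, 1084, 969 and 1014 CPM at 0.5 ng. Its GFAP-IL6 libraries had 876, 718, 779 and 1073 CPM at 50 ng and 1176, 1390, 1464 and 1063 CPM at 0.5 ng. At 0.5 ng 5 of 8 libraries were above every library at 50 ng and none was below all of them. Over both genotypes it averaged 829 ± 112 CPM with 50 ng, 936 ± 64.9 with 10 ng, 1051 ± 171 with 1 ng and 1189 ± 189 with 0.5 ng (SD, n = 8). The log2 difference from 50 ng was 0.57 with an SE of 0.118 at 0.5 ng (edgeR, adjusted p = 0.00861), 0.41 with an SE of 0.118 at 1 ng (adjusted p = 0.0921) and 0.20 with an SE of 0.0961 at 10 ng, where it did not pass. At 0.5 ng the call held when any single library was left out, with adjusted p-values from 0.00202 to 0.0288, but not with GFAP-IL6 replicate 4 and all replicate 2 libraries left out together, at 0.65 and an adjusted p of 0.0605. At 1 ng it was made without GFAP-IL6 replicate 4 at 50 ng (adjusted p = 0.0160), by the DESeq2 test (adjusted p = 0.0259) and by voom with library weights (adjusted p = 0.0154).

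Of the 64 further glutamatergic genes, 60 were tested at 10 and 1 ng against 50 ng and 59 at 0.5 ng. At 10 ng none passed, and 1 gene had an unadjusted p under 0.05 in edgeR. At 1 ng the calmodulin gene Calm2 rose by 0.47 and the metabotropic receptor gene Grm3 fell by 1.22 on the log2 scale, and at 0.5 ng Calm2 rose by 0.52 and the NMDA receptor gene Grin3a fell by 2.68. Of the 10 pan-neuronal markers the neurofilament gene Nefl fell by 0.53 and Rbfox3, the neuronal splicing factor gene, fell by 0.59 at 0.5 ng, while the other 8 did not pass and the median of the list was 0.065 on the log2 scale. None of the 10 cortical excitatory neuron markers passed there, and their median was 0.14. Their part in the values of the members was not tested, and these genes were named after their values were seen.

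Grm5 was lost at the smallest input. It had 5 to 27 counts per library at 50 ng, 2 to 31 at 10 ng, 0 counts in 5 of 8 libraries at 1 ng and 0 counts in all 8 at 0.5 ng. Its mean was 3.39 ± 2.04 CPM at 50 ng and still 2.73 ± 4.26 CPM at 1 ng (SD, n = 8). Over the 12082290 counts of the 0.5 ng libraries together, 3 counts would be 0.248 CPM. The 95 counts at 50 ng were 3.11 CPM of their total. By this floor, which covers counting error only, Grm5 counts were at least 12.5-fold lower at 0.5 ng. Without molecular identifiers this is no bound on the level of Grm5 RNA, and loss of rare molecules at small inputs was not tested. Grm5 was below the filter on low counts in the 0.5 ng comparison and passed in the fit without that filter (edgeR, adjusted p = 0.00910). The length of Grm5 in the count table was 3612 bases, while its merged exons in a later GENCODE release cover 10247 bases. The other 9 members were also longer in that release, by little for Grin2b (24788 and 24842 bases) and by much for Grin1 (4368 and 9700 bases). Whether reads from the 3' end of Grm5 fell outside the counted exons was not tested.

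The other members moved less or were more variable at small inputs. Grin1 averaged 78.6 ± 22.7 CPM at 50 ng and 48.1 ± 25.1 CPM at 0.5 ng (SD, n = 8), with 5 to 221 counts per library at 0.5 ng, and its log2 difference of -0.65 had an SE of 0.313 (edgeR, adjusted p = 0.356). Gria1 averaged 122 ± 29.8, 127 ± 17.0, 99.5 ± 21.3 and 163 ± 33.5 CPM at 50, 10, 1 and 0.5 ng, so that its level at 1 ng was on the other side of its 50 ng level from that at 0.5 ng. Grin2b averaged 475 ± 72.3 CPM at 50 ng and 589 ± 84.9 CPM at 1 ng, with a log2 difference of 0.37 and an SE of 0.124 (edgeR, adjusted p = 0.157), and without GFAP-IL6 replicate 4 at 50 ng the difference was 0.43 and passed (edgeR, adjusted p = 0.0475). Slc17a7 averaged 37.5 ± 6.62, 30.5 ± 3.70, 26.7 ± 6.70 and 43.2 ± 20.3 CPM, and none of its differences passed.

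The spread between libraries of a group was larger at 1 and 0.5 ng than at 50 and 10 ng. For the 9 members other than Grm5, the median SD of log2(CPM + 1) within groups was 0.28, 0.20, 0.34 and 0.41 from the largest input to the smallest. With GFAP-IL6 replicate 4 left out of every input these medians were 0.13, 0.19, 0.34 and 0.42. Gria2, the most abundant, had SDs of 0.19, 0.10, 0.24 and 0.21. Grin1 went from 0.36 at 50 ng to 0.94 at 0.5 ng, Slc17a7 from 0.28 to 0.81 and Gria4 from 0.30 to 0.69. Camk2a went the other way, from 0.70 at 50 ng to 0.41 at 0.5 ng, and had 0.13 at 50 ng without GFAP-IL6 replicate 4. The 1 and 0.5 ng libraries were also shallower, and what part depth had in the spread was not tested.

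The genotype difference of a member was not shown to depend on input. In tests of the difference in genotype effect against 50 ng, 0 of 10 members passed at 10 ng, 0 of 10 at 1 ng and 0 of 9 at 0.5 ng, and in each case 0% of all genes tested passed (edgeR; 174, 471 and 758 genes had an unadjusted p under 0.05, no member among them). DESeq2 and voom passed no member either. For Camk2a the difference between the effects at 0.5 and 50 ng was -0.33 (log2), with a 95% interval from -1.37 to 0.70.

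Shares of counts among related subunits compare genes within a library, and so do not depend on the library's scaling. Gria2 made up 67.8 ± 2.33% of the counts of the 4 AMPA receptor genes in WT and 66.3 ± 2.71% in GFAP-IL6 at 50 ng (SD, n = 4). The corresponding values were 71.3 ± 1.80% and 68.4 ± 2.45% at 10 ng and 69.7 ± 5.63% and 71.0 ± 7.84% at 1 ng, while at 0.5 ng it ran from 65.0 to 77.8% in WT and from 68.4 to 76.4% in GFAP-IL6. The genotypes overlapped at every input, and the differences of -1.48, -2.91, 1.27 and 3.17 percentage points had exact permutation p-values of 0.429, 0.114, 0.829 and 0.371 (two-sided, 4 against 4, for which 0.0286 is the smallest possible). Adjusted over the 8 share tests, the exact permutation p-values were 0.490, 0.457, 0.829 and 0.490. When each library was left out in turn, the difference ran from -2.41 to -0.58 points at 50 ng and from -3.86 to -1.89 at 10 ng. At 1 ng it ran from -1.47, without GFAP-IL6 replicate 1, to 4.83, without GFAP-IL6 replicate 2, with the other sign in 2 of 8 fits, and at 0.5 ng from 1.51 to 5.77.

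The Grin2a share of Grin2a and Grin2b counts, a ratio that rises as cortex matures, was 31.6 ± 3.65% in WT and 29.1 ± 3.66% in GFAP-IL6 at 50 ng, and 28.9 ± 5.19% and 31.5 ± 1.76% at 10 ng. At 1 ng it was 17.8, 21.1, 19.8 and 21.0% in the WT libraries and 20.7, 32.4, 27.4 and 27.9% in the GFAP-IL6 libraries. There 3 of the GFAP-IL6 libraries were above all WT libraries, and the difference of 7.15 percentage points had an exact permutation p of 0.0857, or 0.457 adjusted over the 8 tests. At 0.5 ng it was 31.0 ± 8.93% and 26.2 ± 5.34%, on 180 to 2509 counts per library. Leaving out single libraries gave differences of -3.77 to -0.89 points at 50 ng, 1.55 to 5.24 at 10 ng, 5.39 to 9.28 at 1 ng and -8.16 to -1.32 at 0.5 ng. None of the 8 share tests passed, with all libraries or with any single one left out.

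**Figure D4:**
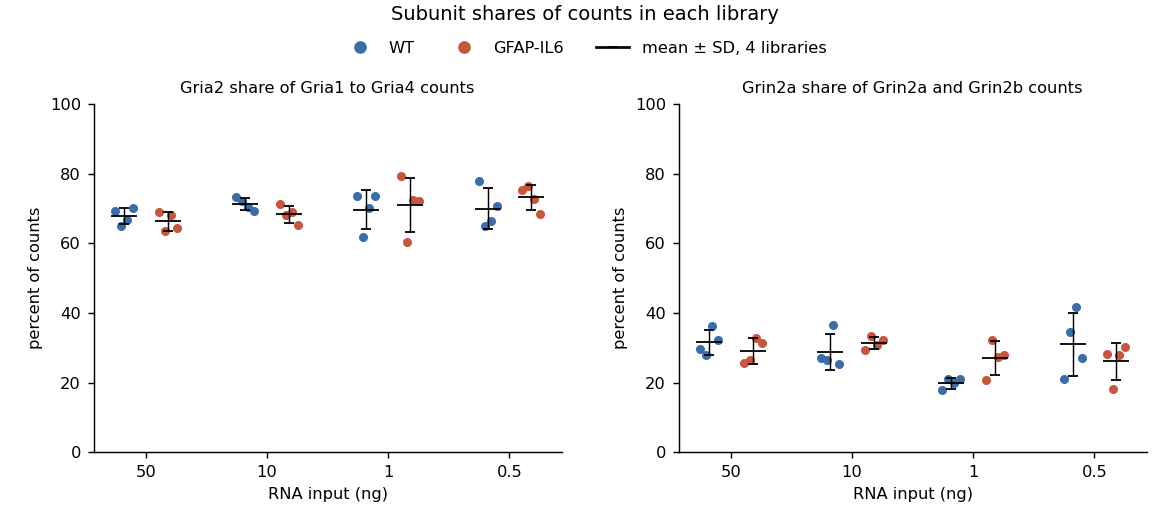
Percent of counts (y axis, 0 to 100) by RNA input in ng (x axis) for Gria2 among the AMPA receptor genes (left) and for Grin2a among Grin2a and Grin2b (right), each point a library, with the mean and SD of 4 libraries in black. Gria2 holds between 60.3 and 79.2% of AMPA receptor counts in all 32 libraries, and the WT points of the Grin2a share at 1 ng lie between 17.8 and 21.1%.

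Grin2b was low in the replicate 3 libraries of both genotypes at the larger inputs. At 50 ng WT replicate 3 had 369 and GFAP-IL6 replicate 3 had 400 CPM, against 473 to 613 CPM in the other 6 libraries, and at 10 ng they had 382 and 413 CPM against 467 to 565. This separation was absent at 1 ng, where they had 549 and 516 CPM against 440 to 682, and at 0.5 ng, where they had 468 and 581 against 454 to 646 CPM. The 8 replicate 3 libraries also had 11.0 to 12.7% of counts in mitochondrial genes, against 14.9 to 20.1% in the other 24, and the part of this in the level of Grin2b was not tested.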

How the data were processed

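Frontal cortex RNA was profiled by 3'Pool-seq in 32 libraries. Per the labels and the study's methods, the authors trimmed poly(A) from single-end reads, aligned them with STAR 2.4 to the mouse genome (mm10) and assigned reads with a unique alignment to GENCODE genes by featureCounts. The deposited counts are whole numbers per gene, not normalized, and a gene length is given beside them. The notes with the labels name hg19 as the build. The files' mouse gene identifiers go against this, and coordinates here come from GENCODE's vM21 annotation of GRCm38. There were no molecular identifiers, so floors cover counting error only, and strand use was not given in the sources used here.

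Groups were taken from sample titles. From the counts, differences were tested with edgeR 4.0.16 in R 4.3.3 (TMM, filterByExpr, quasi-likelihood), per input for genotype and per pair of inputs for the input effect and for the difference in genotype effect. A gene passed at a Benjamini-Hochberg adjusted p under 0.05 over all genes tested. SEs were worked out from the F statistic and intervals from the t distribution. Subunit shares were tested by two-sided exact permutation (scipy 1.17.1). Levels are CPM of the total, with a floor of 3 counts (0.305 to 11.5 CPM per library). Scripts were tested on simulated data.

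The members and the lists of other genes (4 of glutamatergic genes and 9 of cell type markers) were chosen with earlier results of these data known. Genes named were every member, list genes that passed between genotypes within an input, and the 5 other genes of at least 10 CPM closest to the members' mean pattern. Genes named to check the libraries (Il6, Ttr, Drd2), overlapping genes and list genes that passed between inputs are outside this rule. Alternatives were DESeq2 1.42.0 size factors and test, the replicate number as a block, no filter on low values, thinning every library to 261378 counts, a single fit of all libraries, leaving out each replicate and, chosen after seeing the data, limma 3.58.1 voom with library weights and leaving out sets of libraries.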

Additional observations from a re-analysis of the deposited data

Results flagged for a closer look

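In 94 groups of 4 libraries (a member's level or a subunit share in a genotype and input), the highest or lowest library was checked, on log2(CPM + 1) for levels and on percent for shares, for a gap to the nearest other library that exceeded Dixon's 95% critical share of the group's range, and 5 had one. Chance gives about 1 in 20. Camk2a in GFAP-IL6 replicate 4 at 50 ng, at 748 CPM against 172 to 222, had a gap of 0.828 of the range on that scale, just under the critical 0.829, and of 0.914 on the CPM scale, above it. Grin2b was low in WT replicate 3 at 50 ng, at 369 CPM where the other 3 libraries had 473 to 485, and again at 10 ng, at 382 CPM against 498 to 507. In the same library at 10 ng the Grin2a share of Grin2a and Grin2b counts was high, at 36.6% against 25.5 to 27.0%. Gria4 was high in WT replicate 3 at 0.5 ng, at 60.2 CPM against 19.5 to 22.8. Grm5 was at 3.57 CPM in GFAP-IL6 replicate 4 at 1 ng and at 0 in the other 3 libraries. WT replicate 3 is the library with 3003 to 3355 CPM of the choroid plexus gene Ttr at each input, and the part of this in these values was not tested.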

How the results depend on the processing

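Between genotypes the number of members that passed stayed at 0 under most alternatives. It became 1 (Camk2a) at 50 ng with no filter on low counts, and leaving out each library in turn gave 0 to 1 at 10 ng. For the input effect at 1 ng against 50 ng, where 0 passed, 1 passed (Gria2) by the DESeq2 test, with voom and library weights, without both 1 ng replicate 3 libraries and without both GFAP-IL6 replicate 4 libraries, and leaving out single libraries gave 0 to 2. At 0.5 ng, where 1 passed, 2 passed (Gria2 and Grm5) with no filter, by the DESeq2 test and in a single fit of all libraries, and 0 passed without GFAP-IL6 replicate 4 and all replicate 2 libraries. The cause was not tested.

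The labels do not say that replicate numbers pair libraries. Deviations of same-numbered libraries from their group means correlated at 0.14 to 0.39 between 50 and 10 ng in WT, at 0.042 to 0.70 in GFAP-IL6 and at 0.030 to 0.26 between 50 ng and the smaller inputs, and 7 of 8 libraries at 50 ng were closest to their own number at 10 ng. Between the genotypes of an input these correlations were 0.068 to 0.32 at 50 ng, 0.084 to 0.26 at 10 ng (3 of 4 over 0.1 in either case), 0.015 to 0.050 at 1 ng and -0.007 to 0.038 at 0.5 ng. With the replicate number as a block, 1 member passed at 10 ng against 50 ng (Gria2, edgeR, adjusted p = 0.0485) and 2 at 1 ng (Gria2, adjusted p = 0.00469, and Grin2b, adjusted p = 0.0191), and Slc17a7 was lower than in the same-numbered 50 ng library in 8 of 8 cases at both inputs without passing. The block changed no other count of members, and no share test passed with it, where 0.125 is the smallest exact p before adjustment.

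Of 2059 member results under alternatives, 203 that passed in neither fit had another sign. No member's mean level moved by over 1 SD with TMM library sizes. The median log2 difference of all genes at 0.5 ng against 50 ng was -0.069, but -0.43 with the block and -0.46 with voom. Calls over all genes, leaving out single libraries aside, ran from 3 to 93 between genotypes at 50 ng, 4 to 77 at 10 ng, 2 to 13 at 1 ng and 1 to 655 at 0.5 ng, the last in the single fit. For the input effect they ran from 0 to 136, 60 to 442 and 16 to 1022. Counts of 3 to 14 for Gria4 and Slc17a7 in the shallowest 1 ng libraries leave only large differences detectable there.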
